A study of Drosophila melanogaster with 12 samples.

Results

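Larval neural stem cells and a cultured blood-cell line of *Drosophila melanogaster* were compared by RNA sequencing in 6 of the 12 libraries of the series, all of them controls of a *barc* depletion experiment (*barc* encodes a nuclear splicing factor). The 2 neuroblast libraries came from L3 larvae late in that stage, bred from flies that carry dicer2; asense-Gal4, UAS-CD8::GFP and were crossed to VIE-260B, an empty landing site, with the progeny kept at 29 °C. Type I neuroblasts were isolated from dissected brains by fluorescence-activated cell sorting, so the cells are defined by the activity of the asense driver. The 4 S2 libraries came from 1 established cell line, kept in Schneider's medium with 10% heat-inactivated serum and exposed for 7 days to dsRNA that targets mCherry, which flies do not have (dsmCherry). The other 6 libraries (2 of neuroblasts crossed to a *barc* RNAi line and 4 of S2 cells given dsRNA against *barc*) gave a separate pair of groups. Libraries were taken by their labels, and genes were compared where the level reached a mean of at least 1 in either group. Levels are FPKM, a read count per transcript length and sequencing depth, rescaled so that every library sums to 1000000 and called rescaled FPKM here. Differences are neuroblasts minus S2 cells on the scale of log2(rescaled FPKM + 1).

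Neuroblasts divide asymmetrically: at each division one daughter stays a stem cell and the other, the ganglion mother cell, divides once more into neurons or glia. Cell fate determinants such as Prospero and Numb are carried into the smaller daughter by adaptor proteins, while a set of transcription factors of the stem cell state and Notch activity stay in the larger one. Neuroblasts also step through a temporal series of factors that sets the type of neuron made and the end of division. S2 cells descend from late embryos and are known for properties of hemocytes, the fly's macrophage-like blood cells, including phagocytosis and the making of basement membrane.

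The libraries held 30.4 and 27.1 M implied fragments in neuroblasts, against 18.8 to 28.6 M in S2 cells (M stands for 1000000), and 6863 and 6859 genes in neuroblasts, against 7455 to 7790 genes in S2 cells, reached 1 rescaled FPKM. Of 14210 genes in each table, 14132 had a usable estimate in all 6 libraries and 8074 passed the level filter. The median absolute difference over these 8074 genes was 0.07 between the neuroblast libraries, 0.12 between S2 libraries 1 and 2, 0.22 between S2 libraries 3 and 4, and 0.25 between the means of S2 libraries 3 and 4 and S2 libraries 1 and 2, which carry different first numbers in their descriptions. The median absolute difference between the 2 cell types was 1.10. All libraries were polyA-selected and strand-marked with dUTP. For neuroblasts a Kapa kit was used manually on Trizol LS extracts, while for S2 cells a robot ran the NEB Ultra kit on Trizol extracts. Kit, handling and cell source therefore cannot be told apart, and only differences of at least 2 on the log2 scale (4-fold) with an adjusted p under 0.05 are called higher or lower. Whether replicates were separate cultures or broods is not in the labels, so a p-value here covers only the spread between libraries, possibly technical. In bulk RNA, fewer cells of a type and less RNA per cell cannot be told apart.

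The labelled identities were set against marker genes first. *mira* (FBgn0021776, 3R:15757521-15760842 in the tables' coordinates, whose build is not given in the sources used here) encodes the adaptor that carries Prospero, Brat and Staufen to the daughter cell. It had 1206 and 1242 rescaled FPKM in neuroblasts, against 0.407, 0.410, 0.327 and 0.269 in S2 cells. *dpn* (FBgn0010109, 2R:4116476-4119832), a Hes-family repressor of the stem cell state, had 225 and 232 rescaled FPKM in neuroblasts, against 0, 0.0504, 0 and 0.0805 in S2 cells. *wor* (FBgn0001983, 2L:15423293-15425585), a Snail-family zinc finger factor, had 183 and 189.8 rescaled FPKM in neuroblasts, against 0, 0.0189, 0 and 0 in S2 cells. These transcripts were high in both neuroblast libraries and at or near 0 in every S2 library. *ase* (FBgn0000137, X:354533-357209), the proneural gene whose driver was used for the sort, had 102 and 111 rescaled FPKM in neuroblasts, against 0 in all 4 S2 libraries. *grh* (FBgn0259211, 2R:13690294-13729584), the gene of the Grainy head factor, had 232 and 241 rescaled FPKM in neuroblasts, against 14.97, 11.9, 21.4 and 46.2 in S2 cells, so S2 library 4 was the highest of the S2 libraries and still below both neuroblast libraries. All 5 markers were called higher, with log2 differences of 9.82 (SE 0.13, adjusted p = 6.17e-08) for *mira*, 7.80 (SE 0.13, adjusted p = 9.53e-08) for *dpn*, 7.54 (SE 0.12, adjusted p = 9.53e-08) for *wor*, 6.74 (SE 0.12, adjusted p = 1.12e-07) for *ase* and 3.46 (SE 0.49, adjusted p = 5.99e-04) for *grh*. Their summed level was 1948 and 2015 rescaled FPKM in neuroblasts, against 12.4 to 46.6 in S2 cells.

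Of 9 blood-cell markers, 6 were called lower in neuroblasts and none higher, and their sum was 58.0 and 59.8 rescaled FPKM in neuroblasts, against 446 to 717 in S2 cells. Without either neuroblast library, *eater* and *Pxn* lost their calls. Most of the neuroblast sum was *crq*, a CD36-family scavenger receptor, with 46.7 and 47.5 rescaled FPKM in neuroblasts, against 433, 442, 338 and 496 in S2 cells. *srp*, the GATA factor of blood cells, had 0.0835 and 0.0129 rescaled FPKM in neuroblasts, against 52.3, 45.0, 35.5 and 71.4 in S2 cells. The groups did not overlap for either gene. *Hml*, the hemolectin gene used to mark mature plasmatocytes, had 0.137 and 0.0834 rescaled FPKM in neuroblasts, against 0.590, 0.378, 3.55 and 13.3 in S2 cells, so the 4 S2 libraries span a wide range, and it was not called (difference -1.64, SE 0.92, adjusted p = 0.143). Markers of other cells of the brain and body were read in the same way. The 8 neuron markers summed to 45.4 and 47.8 rescaled FPKM in neuroblasts, against 13.3 to 23.4 in S2 cells, with 5 of the 8 under 1 in both neuroblast libraries. The 6 glial markers summed to 266 and 275 rescaled FPKM in neuroblasts, against 57.4 to 88.7 in S2 cells, with 4 of 6 under 1 in both neuroblast libraries. Most of that sum came from *Eaat1* and *nrv2*, and the defining glial gene *repo* averaged 0.10 rescaled FPKM in neuroblasts and 0.03 in S2 cells. The 4 fat body markers summed to 0.0446 and 0.0310 rescaled FPKM in neuroblasts, against 0.0644 to 0.198 in S2 cells, with *Lsp1alpha* at 0 in all 6 libraries and *Lsp2* at 0 in both neuroblast libraries. The 4 muscle markers summed to 0.570 and 0.467 rescaled FPKM in neuroblasts, against 1.17 to 2.66 in S2 cells. The part of other brain cells in the differences was not tested.

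**Figure D1:**
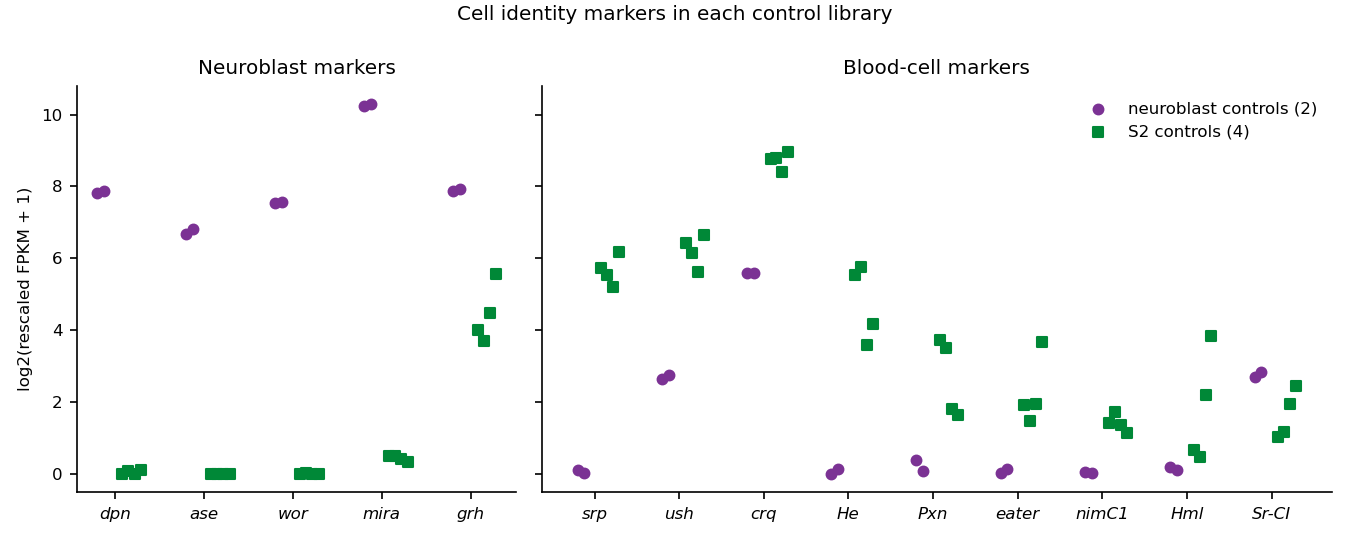
Level of 5 neuroblast markers and 9 blood-cell markers in each control library, as log2(rescaled FPKM + 1), with the 2 neuroblast libraries (circles) to the left of the 4 S2 libraries (squares) for each gene. All 5 neuroblast markers are higher in both neuroblast libraries than in every S2 library, and 6 of the 9 blood-cell markers were called lower in neuroblasts; *Sr-CI* (difference 1.12) runs the other way, without a call.

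Transcripts tied to the crosses and treatments were read next. *Dcr-2*, the RNase of the RNAi pathway, had 585 and 637 rescaled FPKM in neuroblasts, against 70.6, 63.8, 41.0 and 95.9 in S2 cells, a log2 difference of 3.21 (SE 0.30, adjusted p = 8.54e-05). The neuroblast lines carry a dicer2 transgene, and its transcript cannot be told apart from that of the endogenous gene. *w*, the eye colour transporter gene that also serves as a transgene marker in flies, had 125 and 119 rescaled FPKM in neuroblasts, against 0.127, 0.114, 0.228 and 0.0750 in S2 cells (log2 difference 6.76). *barc* itself, not targeted in any of these 6 libraries, had 116 and 127 rescaled FPKM in neuroblasts, against 30.4, 31.8, 25.6 and 31.7 in S2 cells. Its log2 difference of 1.99 (SE 0.13, adjusted p = 1.51e-05) lay just under the threshold for a call. It passed without neuroblast library 1 (difference 2.06), without S2 library 2 (2.02) or without S2 library 4 (2.02).

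Over all 8074 genes, 586 (7.26%) were called higher in neuroblasts and 1330 (16.5%) lower, 1916 (23.7%) in all. Without the threshold on size, 6157 genes (76.3%) passed an adjusted p under 0.05, 2931 (36.3%) of them higher and 3226 (40.0%) lower. For every one of the 1916 genes called, the 2 neuroblast values and the 4 S2 values did not overlap. That also held for 6856 genes (84.9%) whatever their size of difference, 3313 (41.0%) higher and 3543 (43.9%) lower, so a lack of overlap was the common case. The median difference of all tested genes was -0.06. The size of the excess of lower calls depended on scaling, and lower calls stayed the more numerous under each. After quantile normalisation, which gives every library the same distribution, 832 genes were called higher and 1036 lower. There 44.5% of calls were higher in place of 30.6%. With median ratio scaling 515 genes were called higher and 1412 lower.

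**Figure D2:**
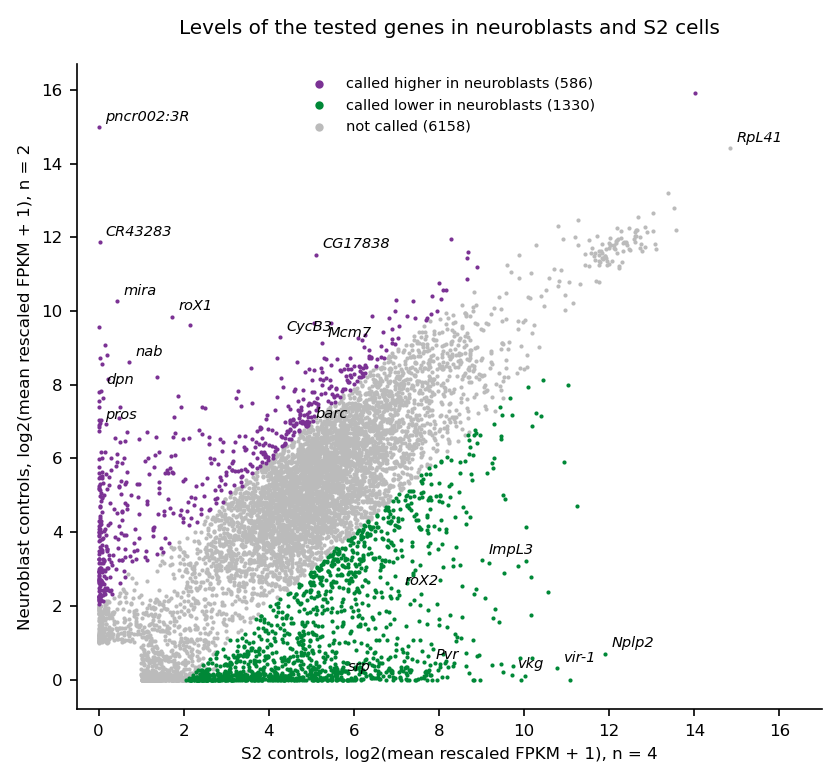
Mean level of each of the 8074 tested genes in neuroblast controls (vertical axis, 2 libraries) against S2 controls (horizontal axis, 4 libraries), both as log2(mean rescaled FPKM + 1), with called genes coloured. The neuroblast markers *mira* and *dpn* and the non-coding RNAs *pncr002:3R* and *CR43283* lie along the left edge, and *vkg*, *vir-1* and *Nplp2* along the lower edge.

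The 2 largest differences in favour of neuroblasts were of long non-coding RNAs. *pncr002:3R* (FBgn0063127, 3R:2525274-2525886) had 31271 and 33460.0 rescaled FPKM in neuroblasts, against 0 in all 4 S2 libraries, a log2 difference of 14.98. *CR43283* (FBgn0262972, 3R:7073825-7081845; now named *cherub*), an RNA known to be handed down asymmetrically in neuroblast divisions, had 3631 and 3860.4 rescaled FPKM in neuroblasts, against 0, 0.00986, 0 and 0.0586 in S2 cells, a log2 difference of 11.85. Both were abundant in the sorted cells and were listed at or near 0 in S2 cells. *CR30009*, another non-coding RNA among the 15 genes, had 269.7 and 297 rescaled FPKM in neuroblasts, against 0, 0.226, 0.352 and 0.104 in S2 cells, a log2 difference of 7.93. The protein-coding genes of this group included, next to *mira*, *dpn*, *wor* and *nab*, *CG6486* (now *Pex7*, a peroxisomal import receptor gene) with 742 and 782 rescaled FPKM in neuroblasts, against 0 to 0.0452 in S2 cells. *CG9363* (now *GstZ2*, a glutathione S-transferase gene) had 529.5 and 559 rescaled FPKM in neuroblasts, against 0.0230 to 0.316 in S2 cells. *CG13023*, *CG13920*, *CG13305* and *CG15646*, which the names used here leave without a function, had log2 differences of 8.70, 8.62, 8.49 and 7.79. *roX1* and the Notch target *HLHmgamma* completed the 15 genes and are described with their groups.

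At the other end, *Nplp2*, a neuropeptide-like precursor gene, had 1.14 and 0.131 rescaled FPKM in neuroblasts, against 3715, 4468, 3943 and 3254 in S2 cells (log2 difference -11.26). *CG34330* had 0 rescaled FPKM in both neuroblast libraries, against 2252, 2469.7, 2008 and 1924 in S2 cells (log2 difference -11.07). *vir-1*, a gene induced by virus infection in flies, had 0.319 and 0.168 rescaled FPKM in neuroblasts, against 2071, 1878, 1574 and 1526 in S2 cells (log2 difference -10.46). These 3 transcripts were abundant in all S2 libraries and at or under 1.14 rescaled FPKM in both neuroblast libraries. The other genes of the 15 included *Irc*, an immune-regulated catalase gene (difference -9.89), the collagen IV genes *Cg25C* and *vkg* (differences -9.60 and -9.57), *Idgf3* and *CG5210* (now *Idgf6*), chitinase-like growth factor genes (differences -9.02 and -9.31), the lipocalin gene *Karl* (difference -9.28) and the transferrin gene *Tsf1* (difference -8.71). *CG14273*, *CG13117*, *CG18557*, *CG10824* (now *cDIP*) and *CG15784* had log2 differences of -9.91, -9.35, -8.97, -8.81 and -8.68. All 15 had adjusted p-values between 4.55e-08 and 5.84e-06.

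A stricter split counted genes that were on (at least 5 rescaled FPKM in every library) in one cell type and off (under 0.1 in every library) in the other. On in neuroblasts and off in S2 cells were 84 genes (1.04%), and on in S2 cells and off in neuroblasts were 198 (2.45%). Of these, 4 of the 84 and 3 of the 198 were not annotated as protein-coding, as were 114 of the 8074 tested genes. Beside the genes already named, the most abundant of the 84 included *CR31386* with 167 and 168 rescaled FPKM in neuroblasts, against 0 in all 4 S2 libraries, *CG16879* with 128 and 134 rescaled FPKM in neuroblasts, against 0 in all 4 S2 libraries, and *CG12708* with 133 and 129.9 rescaled FPKM in neuroblasts, against 0 to 0.0518 in S2 cells. The most abundant of the 198 included *Swim*, a gene of a secreted Wingless-interacting protein, with 0.0633 and 0.0476 rescaled FPKM in neuroblasts, against 199.6 to 347 in S2 cells, and the pyrimidine breakdown gene *su(r)* with 0 rescaled FPKM in both neuroblast libraries, against 189 to 309.6 in S2 cells.

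Transcription factors of neuroblasts were the first list examined. Of 18 tested members, 11 (61.1%) were called higher and none lower, against 7.26% and 16.5% of all genes, and the median difference was 3.10. The 11 include markers already described above, among them *dpn*, *wor* and *ase*. *nab*, a cofactor gene of neuroblast sublineages, had 392 and 394 rescaled FPKM in neuroblasts, against 1.11, 1.48, 0.0270 and 0 in S2 cells, a log2 difference of 8.02 (SE 0.42, adjusted p = 5.00e-06). *pros*, the homeodomain factor gene that ends self-renewal in the ganglion mother cell, had 116 and 122 rescaled FPKM in neuroblasts, against 0, 0.00587, 0.0272 and 0.00256 in S2 cells, a log2 difference of 6.90 (SE 0.12, adjusted p = 1.05e-07). Both neuroblast values stood far above all S2 values for each gene. *klu*, a zinc finger gene of neuroblast maintenance, had 92.0 and 90.5 rescaled FPKM in neuroblasts, against 1.18, 1.19, 2.76 and 6.63 in S2 cells (difference 4.75, SE 0.51, adjusted p = 1.62e-04), with S2 library 4 the highest of the cell line. *tll*, a nuclear receptor gene, had 24.6 and 25.7 rescaled FPKM in neuroblasts, against 0 to 0.0755 in S2 cells (difference 4.68), the Sox gene *D* had 16.8 and 14.99 rescaled FPKM in neuroblasts, against 0 to 0.0236 in S2 cells (difference 4.06), *sna* had 5.49 and 5.83 rescaled FPKM in neuroblasts, against 0 in all 4 S2 libraries (difference 2.74) and the Hedgehog effector gene *ci* had 6.67 and 6.64 rescaled FPKM in neuroblasts, against 0.172 to 1.13 in S2 cells (difference 2.37). Not called were *SoxN*, with 95.7 and 102 rescaled FPKM in neuroblasts, against 39.2 to 69.99 in S2 cells (difference 1.00), and *lola*, with 522 and 524 rescaled FPKM in neuroblasts, against 140.3 to 251 in S2 cells (difference 1.36). The proneural genes *ac*, *sc* and *cato* stayed under the level filter in both cell types, and *l(1)sc* had 2.39 and 3.10 rescaled FPKM in neuroblasts, against 0 in all 4 S2 libraries (difference 1.90). Without neuroblast library 1, *l(1)sc* and *nerfin-1* were called, at differences of 2.04 and 2.02.

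Part of the machinery of asymmetric division was higher in neuroblasts. Of 28 tested members, 10 (35.7%) were called higher, the marker *mira* among them, and none lower, with a median difference of 1.23. *insc*, which links the polarity complex to the spindle, had 141 and 138 rescaled FPKM in neuroblasts, against 2.52, 2.26, 2.41 and 2.52 in S2 cells, a log2 difference of 5.36 (SE 0.13, adjusted p = 2.07e-07). *spdo*, a membrane regulator of Notch in the dividing cell, had 96.8 and 93.9 rescaled FPKM in neuroblasts, against 1.91, 1.17, 1.92 and 4.40 in S2 cells (difference 4.93, SE 0.35, adjusted p = 2.02e-05). *stau*, an RNA-binding protein gene that carries *pros* RNA, had 787 and 848 rescaled FPKM in neuroblasts, against 40.5, 32.9, 27.3 and 70.9 in S2 cells (difference 4.31, SE 0.35, adjusted p = 4.11e-05). For these 3 genes the S2 values were low but above 1 in every library, and the groups did not overlap. *numb*, the inhibitor of Notch in the daughter cell, had 177 and 185 rescaled FPKM in neuroblasts, against 6.76 to 17.6 in S2 cells (difference 3.99), its partner gene *pon* 119 and 116 rescaled FPKM in neuroblasts, against 19.4 to 28.0 in S2 cells (difference 2.32), the spindle orientation gene *mud* 55.3 and 60.05 rescaled FPKM in neuroblasts, against 7.01 to 25.3 in S2 cells (difference 2.09) and the polarity gene *scrib* 117 and 118 rescaled FPKM in neuroblasts, against 20.2 to 32.1 in S2 cells (difference 2.03). The calls of *mud* and *scrib* rest on single libraries: *mud* was not called without neuroblast library 2 (difference 2.03, adjusted p above 0.05), S2 library 2 (1.93) or S2 library 3 (1.82), and *scrib* not without S2 library 3 (1.88).

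The conserved apical complex was present in both cell types. *baz*, *par-6* and *aPKC*, the Par complex genes, had differences of -0.03, 0.75 and 0.25, none of them called. *baz* had 28.97 and 28.1 rescaled FPKM in neuroblasts, against 32.1, 27.0, 28.2 and 29.3 in S2 cells, with the neuroblast values inside the S2 range. *raps* (also known as *pins*), the G protein regulator of spindle orientation, had 22.6 and 22.8 rescaled FPKM in neuroblasts, against 73.8, 74.2, 55.9 and 55.6 in S2 cells, a log2 difference of -1.46 (SE 0.17, adjusted p = 2.09e-04) that did not reach 4-fold, and *loco*, a regulator of the same G protein, had a difference of -1.83. *brat*, a growth suppressor gene carried by Miranda, had 215 and 215 rescaled FPKM in neuroblasts, against 57.0 to 86.4 in S2 cells (difference 1.51), and the mitotic kinase genes *aur* and *polo* had differences of 1.40 and 1.89, also under the threshold.

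Genes of the temporal series and of ecdysone response were called in both directions, more often higher. Of 25 tested members, 13 (52%) were called higher and 3 (12%) lower, against 7.26% and 16.5% of all genes. The median difference was 2.94. *CG17838* (now *Syp*), the Syncrip RNA-binding protein gene that marks old neuroblasts, had 2901 and 3019.8 rescaled FPKM in neuroblasts, against 34.3, 22.03, 19.0 and 58.3 in S2 cells, a log2 difference of 6.56 (SE 0.42, adjusted p = 1.29e-05). *Imp*, the RNA-binding protein gene of young neuroblasts, had 2.56 and 2.72 rescaled FPKM in neuroblasts, against 76.2, 50.0, 26.2 and 97.1 in S2 cells, a log2 difference of -3.97 (SE 0.49, adjusted p = 2.98e-04). The 2 genes thus stood in opposite order in the 2 cell types, and the groups overlapped for neither. *Eip93F*, the ecdysone-induced gene of the last neuroblast window, had 60.8 and 73.4 rescaled FPKM in neuroblasts, against 2.34, 1.90, 1.85 and 3.75 in S2 cells (difference 4.33, SE 0.24, adjusted p = 7.14e-06), and *br*, another late gene, had 37.1 and 37.8 rescaled FPKM in neuroblasts, against 2.42 to 5.49 in S2 cells (difference 3.02). The young-stage genes *chinmo* and *lin-28* had 13.4 and 14.1 rescaled FPKM in neuroblasts, against 16.7 to 51.6 in S2 cells (difference -1.08) and 0.0380 and 0 rescaled FPKM in neuroblasts, against 1.06 to 2.68 in S2 cells (difference -1.43), neither called.

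Genes of the optic lobe and embryonic temporal series were mostly on the neuroblast side where tested. *hth* had 66.6 and 75.7 rescaled FPKM in neuroblasts, against 0.0117 to 0.109 in S2 cells (difference 6.11), *ey* 12.99 and 13.1 rescaled FPKM in neuroblasts, against 0.137 to 0.773 in S2 cells (difference 3.39), *slp1* 5.93 and 7.99 rescaled FPKM in neuroblasts, against 0 to 0.0756 in S2 cells (difference 2.94), *slp2* 17.8 and 20.02 rescaled FPKM in neuroblasts, against 0 to 0.0508 in S2 cells (difference 4.29) and the nuclear receptor gene *svp*, a switching factor, 45.8 and 48.4 rescaled FPKM in neuroblasts, against 0.0689 to 0.241 in S2 cells (difference 5.41). *dan* and *danr*, which encode related nuclear factors, had differences of 5.02 and 4.48. *cas* had 1.46 and 1.94 rescaled FPKM in neuroblasts, against 0 to 0.108 in S2 cells, and *hb*, *Kr*, *nub* and *pdm2*, the embryonic factors that precede it, were under the level filter in both cell types. Lower in neuroblasts, next to *Imp*, were *ImpL2*, a secreted antagonist of insulin-like peptides, with 8.45 and 6.60 rescaled FPKM in neuroblasts, against 1182, 1079, 509.7 and 955 in S2 cells (difference -6.71, SE 0.34, adjusted p = 4.28e-06), and the ecdysone-response gene *Eip74EF* with 0.230 and 0.194 rescaled FPKM in neuroblasts, against 8.26 to 12.3 in S2 cells (difference -3.25). The receptor genes *EcR* and *usp* were present in both cell types, with 11.3 and 11.97 rescaled FPKM in neuroblasts, against 18.5 to 34.7 in S2 cells (difference -0.94) and 26.2 and 24.6 rescaled FPKM in neuroblasts, against 42.7 to 48.5 in S2 cells (difference -0.81), and were not called.

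In the Notch pathway, targets and a ligand were higher, and most of the processing genes did not reach the threshold. Of 22 tested members, 6 (27.3%) were called higher and 2 (9.09%) lower, with a median difference of 0.71. *HLHmgamma*, the Enhancer of split gene of neuroblasts, had 191 and 202 rescaled FPKM in neuroblasts, against 0.136, 0, 0 and 0.165 in S2 cells, a log2 difference of 7.53 (SE 0.14, adjusted p = 1.13e-07). *E(spl)* had 41.3 and 45.3 rescaled FPKM in neuroblasts, against 0 in all 4 S2 libraries (difference 5.47, SE 0.12, adjusted p = 1.92e-07), and *HLHm7* and *malpha*, of the same complex, had differences of 2.93 and 3.38. All 4 were low or listed at 0 in S2 cells. *Dl*, the Notch ligand gene, had 37.4 and 38.6 rescaled FPKM in neuroblasts, against 0.223, 0.0503, 0.195 and 0.292 in S2 cells (difference 5.04, SE 0.14, adjusted p = 3.82e-07), and *neur*, the ubiquitin ligase gene that activates it, 110.0 and 117 rescaled FPKM in neuroblasts, against 10.7, 10.2, 11.3 and 19.4 in S2 cells (difference 3.09, SE 0.26, adjusted p = 4.85e-05). The other ligand gene, *Ser*, ran the opposite way with 0.0244 and 0.0554 rescaled FPKM in neuroblasts, against 10.3, 9.42, 10.4 and 11.9 in S2 cells (difference -3.46, SE 0.14, adjusted p = 1.76e-06). The receptor gene *N* had 69.4 and 75.8 rescaled FPKM in neuroblasts, against 18.8 to 23.8 in S2 cells (difference 1.75, SE 0.13, adjusted p = 3.17e-05), short of the threshold, and *Su(H)*, its transcription factor partner, had a difference of 0.96. The gamma-secretase genes *Psn*, *nct*, *aph-1* and *pen-2* had log2 differences of -0.50, -0.25, -1.16 and -0.53. *kuz*, the protease that cuts Notch first, was called lower (difference -2.08), but not without S2 library 4 (-1.90), after quantile normalisation (-1.98) or after rescaling over coding genes (-1.96). Counting genes of at least 1000 bases only, 2 members in place of 6 were called higher, since the Enhancer of split genes are short.

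Homeotic and regional patterning genes were mostly on the neuroblast side. Of 19 tested members, 13 (68.4%) were called higher and 1 (5.26%) lower, with a median difference of 2.67. *Antp*, the thoracic Hox gene, had 15.7 and 16.02 rescaled FPKM in neuroblasts, against 0, 0.0111, 0.0616 and 0.0498 in S2 cells (difference 4.03, SE 0.12, adjusted p = 4.47e-07). *Optix*, of the optic lobe and eye, had 17.8 and 18.8 rescaled FPKM in neuroblasts, against 0 to 0.0589 in S2 cells (difference 4.23), and *oc*, the head gap gene also called orthodenticle, had 18.3 and 20.3 rescaled FPKM in neuroblasts, against 0.0623 to 0.937 in S2 cells (difference 3.86). The columnar genes *vnd* and *ind* had differences of 2.92 and 2.56, and the segment polarity genes *gsb*, *gsb-n*, *en* and *inv* had differences of 2.38, 3.49, 2.23 and 3.17. Levels were modest, from 3.42 rescaled FPKM for *en* in neuroblast library 2 to 75.7 for *hth* in the same library. The 1 gene called lower was *ap*, a LIM-homeodomain gene, with 2.89 and 2.71 rescaled FPKM in neuroblasts, against 514, 516, 529.9 and 1003 in S2 cells (difference -7.34, SE 0.29, adjusted p = 1.44e-06). *Dr*, the columnar gene also called msh, had 6.45 and 7.41 rescaled FPKM in neuroblasts, against 0.0231, 0.0188, 10.2 and 13.9 in S2 cells, so S2 libraries 3 and 4 were above neuroblasts and S2 libraries 1 and 2 near 0, and it was not called (difference 1.13, SE 1.24, adjusted p = 0.428). The Hox genes *Ubx*, *abd-A* and *Abd-B* were under the level filter.

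Genes of type II lineages were read next, the labels giving the sort as type I. A comparison with S2 cells cannot check that label, since no type II sample sets a reference level. Of 9 tested members, 6 (66.7%) were called higher and 1 (11.1%) lower, against 7.26% and 16.5% of all genes. The gene lower was *pnt*, the ETS factor gene that defines type II neuroblasts, with 1.04 and 0.851 rescaled FPKM in neuroblasts, against 260.0, 235, 163 and 237 in S2 cells (difference -6.83, SE 0.20, adjusted p = 4.72e-07). *btd* and *Sp1*, related zinc finger genes, had 2.41 and 2.66 rescaled FPKM in neuroblasts, against 0 to 0.0179 in S2 cells (difference 1.81) and 5.74 and 5.89 rescaled FPKM in neuroblasts, against 0 to 0.0211 in S2 cells (difference 2.76), and *erm*, of intermediate progenitors, had 4.77 and 5.80 rescaled FPKM in neuroblasts, against 0 to 0.0196 in S2 cells (difference 2.64). These levels are low beside the 102 and 111 rescaled FPKM of *ase* in the same libraries. Of the other genes called higher, *grh*, *tll* and *ey* are shared with other lists, and *Six4* had 5.46 and 5.56 rescaled FPKM in neuroblasts, against 0 to 0.0523 in S2 cells (difference 2.68).

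Genes of differentiated neurons were scarce. Of 24 listed, 8 were tested, 4 (50%) were called higher and none lower, against 7.26% and 16.5% of all genes. The median difference was 1.65. The genes called higher were *onecut*, a homeodomain gene, with 11.1 and 11.9 rescaled FPKM in neuroblasts, against 0.0525 to 0.0713 in S2 cells (difference 3.56), *fne*, of the ELAV family, with 10.03 and 10.9 rescaled FPKM in neuroblasts, against 0.0222 to 0.0969 in S2 cells (difference 3.45), the calcium channel gene *cac* with 4.05 and 3.87 rescaled FPKM in neuroblasts, against 0.0322 to 0.136 in S2 cells (difference 2.21) and *Appl*, the amyloid precursor homologue, with 8.63 and 8.49 rescaled FPKM in neuroblasts, against 0.741 to 2.03 in S2 cells (difference 2.16). *elav*, the pan-neuronal marker, had 30.0 and 31.8 rescaled FPKM in neuroblasts, against 11.7, 12.5, 11.9 and 19.1 in S2 cells (difference 1.13, SE 0.22, adjusted p = 0.00260), so it was present in both cell types and not called. The synaptic genes *Syt1*, *n-syb*, *VGlut*, *VAChT* and *Gad1* were under the level filter in both, and *brp*, an active zone gene, had 0.209 and 0.158 rescaled FPKM in neuroblasts, against 3.30, 2.07, 0.942 and 3.06 in S2 cells (difference -1.43).

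Of 13 tested genes on the glial list, 8 (61.5%) were called lower in neuroblasts and 1 higher, with a median difference of -3.04. The lower genes, next to *vir-1* and *pnt*, included the FGF receptor gene *htl* with 0.0129 and 0.0780 rescaled FPKM in neuroblasts, against 26.3 to 41.3 in S2 cells (difference -5.12), the citrate transporter gene *Indy* with 5.75 and 4.48 rescaled FPKM in neuroblasts, against 85.6 to 191 in S2 cells (difference -4.59), *moody*, a receptor gene of the blood-brain barrier, with 0.0545 and 0.0828 rescaled FPKM in neuroblasts, against 14.2 to 32.3 in S2 cells (difference -4.28), the glutamine synthetase gene *Gs2* with 0.306 and 0.404 rescaled FPKM in neuroblasts, against 9.08 to 11.5 in S2 cells (difference -3.06) and *Gli* with 0.456 and 0.374 rescaled FPKM in neuroblasts, against 9.31 to 12.02 in S2 cells (difference -3.04). These genes are named for glia but are expressed here in the cell line. *repo* and *gcm*, the factors that define glia, were under the level filter in both cell types. The gene called higher was *Eaat1*, a glutamate transporter gene, with 104 and 100.4 rescaled FPKM in neuroblasts, against 1.42, 1.14, 3.32 and 4.03 in S2 cells (difference 4.98, SE 0.38, adjusted p = 2.88e-05). *nrv2*, a sodium pump subunit gene, had 161 and 173 rescaled FPKM in neuroblasts, against 36.4 to 52.3 in S2 cells (difference 1.96), and was called without neuroblast library 1 (2.01) or without S2 library 4 (2.06).

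Cell adhesion and guidance genes of the nervous system included 6 of 23 called higher (26.1%) and 1 lower, with a median difference of 0.81. *Nrt*, the neurotactin gene, had 167 and 169.9 rescaled FPKM in neuroblasts, against 2.14, 2.33, 2.86 and 4.11 in S2 cells (difference 5.48, SE 0.22, adjusted p = 1.54e-06). *trn*, of the leucine-rich repeat family, had 45.2 and 51.7 rescaled FPKM in neuroblasts, against 0 to 0.0987 in S2 cells (difference 5.54), and *otk*, a receptor-like gene, 62.1 and 64.9 rescaled FPKM in neuroblasts, against 0.263 to 0.793 in S2 cells (difference 5.44). *shg*, the E-cadherin gene, had 56.9 and 56.5 rescaled FPKM in neuroblasts, against 4.40, 3.98, 6.61 and 9.08 in S2 cells (difference 3.10, SE 0.30, adjusted p = 9.41e-05), with no overlap between the groups. *Fas3* had 10.1 and 11.5 rescaled FPKM in neuroblasts, against 1.60, 1.59, 1.56 and 2.23 in S2 cells (difference 2.11, SE 0.16, adjusted p = 2.74e-05) and *Sema-1a* 9.46 and 9.70 rescaled FPKM in neuroblasts, against 2.74, 2.17, 0.398 and 1.11 in S2 cells (difference 2.12, SE 0.39, adjusted p = 0.00215). Without S2 library 3 *Sema-1a* was no longer called (1.85), and without S2 library 4 *plexB* was (2.11). The gene called lower was *Dscam*, with 1.20 and 1.1001 rescaled FPKM in neuroblasts, against 11.8, 9.61, 5.04 and 25.6 in S2 cells (difference -2.50, SE 0.53, adjusted p = 0.00429). *caps* (difference -1.94) joined it without S2 library 1 (-2.09) or without S2 library 2 (-2.06). *Nrg*, *Nrx-IV* and *plexA* had log2 differences of 1.00, 0.03 and 0.79 and were not called.

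**Figure D3:**
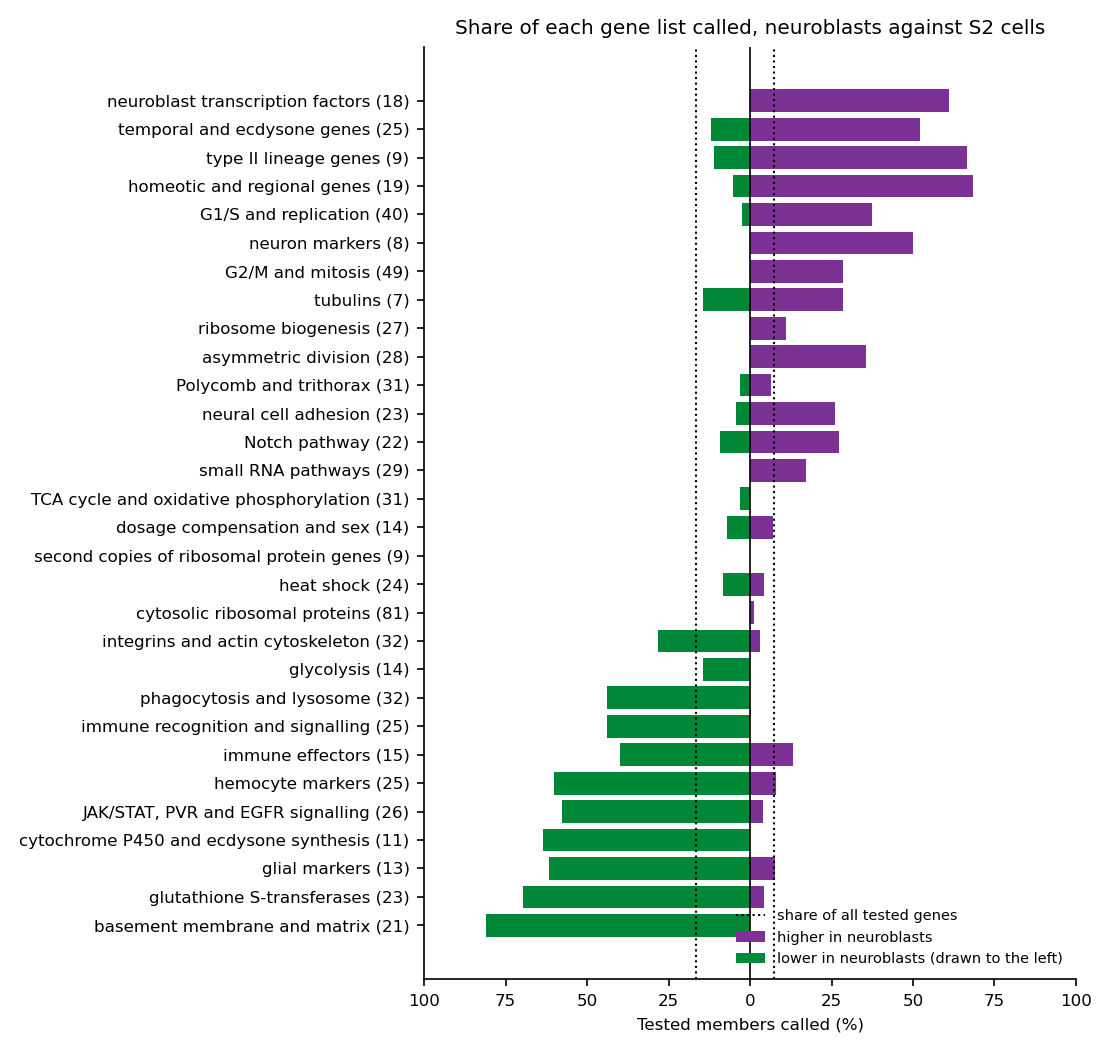
Percentage of the tested members of each gene list called higher in neuroblasts (bars to the right) or lower in neuroblasts (bars to the left), with the number of tested members in brackets and lists ordered by median difference. Dotted lines mark the share of all tested genes, 7.26% higher and 16.5% lower; the lists of basement membrane, glutathione S-transferase and P450 genes reach furthest to the left.

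Many blood-cell genes were lower in neuroblasts. Of 25 tested genes on the long hemocyte list, 15 (60%) were called lower in neuroblasts, against 16.5% of all genes, and 2 higher, with a median difference of -2.18. *Pvr*, the PDGF/VEGF-like receptor gene of hemocytes, had 0.267 and 0.357 rescaled FPKM in neuroblasts, against 209, 203, 191 and 273 in S2 cells, a log2 difference of -7.38 (SE 0.17, adjusted p = 1.97e-07). *zfh1*, a zinc finger homeodomain gene, had 0.242 and 0.231 rescaled FPKM in neuroblasts, against 169, 106, 71.8 and 242 in S2 cells (difference -6.76, SE 0.46, adjusted p = 1.68e-05), and *ush*, the partner of Serpent, 5.24 and 5.74 rescaled FPKM in neuroblasts, against 85.0, 70.3, 47.8 and 99.5 in S2 cells (difference -3.51, SE 0.28, adjusted p = 3.92e-05). In each of these, even the lowest S2 library was far above both neuroblast libraries. *srp* (difference -5.59, SE 0.27, adjusted p = 3.62e-06), the matrix metalloprotease gene *Mmp1* (difference -6.95, SE 0.38, adjusted p = 6.01e-06) and *He*, hemese, (difference -4.70, SE 0.63, adjusted p = 4.59e-04) were lower as well. *eater*, a phagocytosis receptor gene, had 0.0124 and 0.0977 rescaled FPKM in neuroblasts, against 2.78, 1.77, 2.87 and 11.7 in S2 cells (difference -2.18, SE 0.58, adjusted p = 0.0118). S2 library 4 stood above the other 3, and the call was lost without it (difference -1.70) and without either neuroblast library. The nimrod receptor gene *nimC1* had 0.0463 and 0.0264 rescaled FPKM in neuroblasts, against 1.18 to 2.28 in S2 cells and was not called (difference -1.35). The genes called higher were *Sr-CII*, a scavenger receptor gene, with 10.5 and 12.02 rescaled FPKM in neuroblasts, against 0.113, 0.152, 0.0881 and 0.182 in S2 cells (difference 3.43, SE 0.13, adjusted p = 1.07e-06), and the fascin gene *sn* with 18.4 and 18.6 rescaled FPKM in neuroblasts, against 2.08, 1.68, 5.42 and 6.81 in S2 cells (difference 2.11, SE 0.46, adjusted p = 0.00499). *sn* dropped to 1.93 without S2 library 1 and 1.86 without S2 library 2, leaving 1 gene called higher.

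Genes of engulfment and the lysosome followed the same direction. Of 32 tested members, 14 (43.8%) were called lower and none higher, with a median difference of -1.62. At an adjusted p under 0.05, 27 were lower, a class that held 40.0% of all genes. *Hexo2*, a hexosaminidase gene, had 0.298 and 0.295 rescaled FPKM in neuroblasts, against 477, 436, 369 and 314 in S2 cells (difference -8.25, SE 0.18, adjusted p = 1.84e-07). *TepII*, a thioester protein gene of the complement-like family, had 0.0936 and 0.0772 rescaled FPKM in neuroblasts, against 203, 174, 164 and 344 in S2 cells (difference -7.61, SE 0.30, adjusted p = 1.45e-06). *ced-6*, the adaptor gene of the engulfment receptor Draper, had 2.75 and 2.63 rescaled FPKM in neuroblasts, against 247, 228, 177 and 194 in S2 cells (difference -5.84, SE 0.16, adjusted p = 3.48e-07). The neuroblast values of these 3 genes did not exceed 2.75 rescaled FPKM. *drpr*, the Draper gene, had 16.8 and 17.2 rescaled FPKM in neuroblasts, against 73.8 to 97.7 in S2 cells (difference -2.18), the sterol transport gene *Npc2a* 2.31 and 1.73 rescaled FPKM in neuroblasts, against 162 to 196 in S2 cells (difference -5.94), and the cathepsin genes *Cp1* and *cathD* had differences of -2.29 and -2.02. *cathD* was not called without S2 library 1 (-1.93) or without S2 library 2 (-1.95). Housekeeping parts of the endolysosome differed less: the proton pump genes *Vha16-1*, *Vha55* and *Vha68-2* differed by -1.46, -0.84 and -0.97, *Rab5* and *Rab7* by -0.88 and -0.92, and the HOPS complex genes *dor* and *car* by 0.10 and -0.26.

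Basement membrane and matrix genes had the largest share of lower calls among the 33 lists. Of 21 tested members, 17 (81.0%) were called lower and none higher, with a median difference of -3.86. Their summed level was 107 and 106 rescaled FPKM in neuroblasts, against 4305 to 5327 in S2 cells. *Cg25C* (FBgn0000299, 2L:5029615-5037114; now *Col4a1*) and *vkg* (FBgn0016075, 2L:5012144-5027412), are neighbouring genes for the 2 chains of collagen IV. *Cg25C* had 0.584 and 0.428 rescaled FPKM in neuroblasts, against 1119, 1255, 1065 and 1221 in S2 cells, and *vkg* had 0.0941 and 0.108 rescaled FPKM in neuroblasts, against 864, 883, 720.3 and 883 in S2 cells. *LanB1*, a laminin chain gene, had 0.699 and 0.569 rescaled FPKM in neuroblasts, against 293, 259, 189.9 and 343 in S2 cells (difference -7.35, SE 0.23, adjusted p = 5.92e-07), and *LanB2* and *LanA* had differences of -7.15 and -5.74. *BM-40-SPARC*, a collagen-binding protein gene, had 6.69 and 5.11 rescaled FPKM in neuroblasts, against 1251, 1111, 1136 and 1046 in S2 cells (difference -7.37, SE 0.13, adjusted p = 1.05e-07). All S2 libraries carried these transcripts at over 100 rescaled FPKM, and no neuroblast library above 7. *Tig*, *Ppn* and the collagen hydroxylase gene *PH4alphaEFB* differed by -7.69, -5.68 and -3.86. The glypican gene *dally* had 1.92 and 1.60 rescaled FPKM in neuroblasts, against 54.4 to 106 in S2 cells (difference -4.62), whereas *dlp*, the other glypican gene, had 16.1 and 16.3 rescaled FPKM in neuroblasts, against 4.28 to 11.1 in S2 cells (difference 1.25, not called). *trol*, the perlecan gene, had 0.417 and 0.330 rescaled FPKM in neuroblasts, against 4.28 to 12.5 in S2 cells (difference -2.57). Without single libraries *Pxn*, the peroxidasin gene, lost its call (without either neuroblast library), as did *wb*, a laminin chain gene (-1.99 without S2 library 4).

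Receptors for that matrix and their links to actin were lower in part. Of 32 tested genes, 9 (28.1%) were called lower and 1 higher (*sn*), with a median difference of -1.14. *mys*, the main beta integrin gene, had 20.3 and 20.4 rescaled FPKM in neuroblasts, against 530.1, 511, 267 and 392 in S2 cells (difference -4.27, SE 0.28, adjusted p = 1.40e-05), and the alpha integrin genes *mew* and *scb* had differences of -2.05 and -3.19. *mew* was not called without neuroblast library 2, S2 library 1 or S2 library 2 (-1.98 to -1.99). *Vinc*, the vinculin gene, had 0.331 and 0.210 rescaled FPKM in neuroblasts, against 173, 157, 98.96 and 120.3 in S2 cells (difference -6.73, SE 0.24, adjusted p = 9.53e-07), and *Rac2* had 0.295 and 0.752 rescaled FPKM in neuroblasts, against 108, 88.7, 81.9 and 112 in S2 cells (difference -6.02, SE 0.20, adjusted p = 6.86e-07). Both were near 0 in neuroblasts and high in every S2 library, while the related *Rac1* had 186 and 197 rescaled FPKM in neuroblasts, against 174, 173, 157 and 170.0 in S2 cells (difference 0.18, adjusted p = 0.107). The actin genes *Act5C* and *Act42A* had 2691 and 2692 rescaled FPKM in neuroblasts, against 2561 to 3949 in S2 cells (difference -0.24) and 1056 and 1041 rescaled FPKM in neuroblasts, against 1122 to 2827 in S2 cells (difference -0.83), and *tsr* and *chic*, the cofilin and profilin genes, differed by 0.88 and 0.91. None of these 4 was called. Without S2 library 1 or S2 library 2 no member was called higher, since *sn* lost its call.

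Part of the immune recognition and signalling genes were lower in neuroblasts. Of 25 tested members, 11 (44.0%) were called lower and none higher, with a median difference of -1.66. *PGRP-SA*, a peptidoglycan recognition gene upstream of Toll, had 0 and 0.0508 rescaled FPKM in neuroblasts, against 266, 238, 154 and 141 in S2 cells (difference -7.56, SE 0.28, adjusted p = 1.18e-06), and *spz*, the gene of the Toll ligand, had 0.0279 and 0.0313 rescaled FPKM in neuroblasts, against 122, 117, 85.5 and 171 in S2 cells (difference -6.88, SE 0.26, adjusted p = 1.20e-06). *PGRP-LC*, the receptor gene of the Imd pathway, had 0.0227 and 0 rescaled FPKM in neuroblasts, against 34.3, 32.5, 61.3 and 67.1 in S2 cells (difference -5.55, SE 0.33, adjusted p = 9.87e-06). *dl* and *Dif*, the NF-kappa-B factor genes of Toll signalling, had differences of -5.59 and -4.12, and their neighbouring loci overlap in the tables. The neuroblast values of these 5 genes did not exceed 0.0508 rescaled FPKM. *Rel*, the factor gene of Imd signalling, had 46.9 and 47.4 rescaled FPKM in neuroblasts, against 65.0, 56.9, 52.1 and 86.3 in S2 cells (difference -0.43), *cact* -0.07 and the Toll receptor gene *Tl* 4.68 and 5.11 rescaled FPKM in neuroblasts, against 6.34 to 14.2 in S2 cells (difference -0.66), none called. *PGRP-LE*, another recognition gene, ran the other way (difference 1.88) and was called without neuroblast library 1 (2.02) or without S2 library 4 (2.05).

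Effectors were mixed. Of 15 tested members, 6 (40%) were called lower and 2 (13.3%) higher, against 16.5% and 7.26% of all genes. The median difference was -1.88. *Drs*, the antifungal drosomycin gene, had 0 rescaled FPKM in both neuroblast libraries, against 45.4, 37.8, 108 and 93.5 in S2 cells (difference -6.04, SE 0.45, adjusted p = 2.61e-05), with S2 libraries 3 and 4 above S2 libraries 1 and 2. *AttB*, an attacin gene, had 0.0531 and 0.263 rescaled FPKM in neuroblasts, against 4.65, 6.16, 13.5 and 11.6 in S2 cells (difference -3.01, SE 0.40, adjusted p = 4.54e-04), and *CecB* had 1.19 and 2.58 rescaled FPKM in neuroblasts, against 28.3, 24.5, 14.4 and 23.7 in S2 cells (difference -3.04, SE 0.31, adjusted p = 1.29e-04). Among the cecropin genes, which are close copies whose reads may be split, *CecA2* was called higher (difference 3.96) and *CecA1* had 104 and 115 rescaled FPKM in neuroblasts, against 19.1 to 54.1 in S2 cells (difference 1.77, called without S2 library 3 at 2.02). *IM23*, an immune-induced peptide gene, had 87.1 and 85.6 rescaled FPKM in neuroblasts, against 0.715, 0.120, 0.276 and 0.572 in S2 cells (difference 5.96, SE 0.20, adjusted p = 8.25e-07). These genes are short, and with genes under 1000 bases left out 1 was called lower and none higher.

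Many receptor tyrosine kinase and cytokine pathway genes were lower in neuroblasts. Of 26 tested members, 15 (57.7%) were called lower and 1 higher, with a median difference of -2.71. The ligand genes of Pvr were all on the S2 side: *Pvf1* had 0.122 and 0 rescaled FPKM in neuroblasts, against 100.1, 88.3, 89.8 and 96.3 in S2 cells (difference -6.48, SE 0.13, adjusted p = 1.41e-07), *Pvf2* 0.882 and 0.693 rescaled FPKM in neuroblasts, against 286, 257, 183 and 194 in S2 cells (difference -6.99, SE 0.21, adjusted p = 4.87e-07) and *Pvf3* 0.201 and 0.121 rescaled FPKM in neuroblasts, against 10.5 to 32.1 in S2 cells (difference -4.20). Feedback and target genes of the Ras pathway were lower too, among them *sty* (Sprouty) (difference -4.09, SE 0.15, adjusted p = 1.22e-06) and *aos* (Argos) (difference -2.93, SE 0.12, adjusted p = 1.70e-06). *aop* (Yan) and *kek1* had differences of -2.63 and -3.52. The kinases and GTPase between them were not called: *Ras85D* had 100.3 and 105 rescaled FPKM in neuroblasts, against 117, 125, 97.9 and 114 in S2 cells (difference -0.14), and *phl*, *Dsor1* and *rl* (Raf, MEK and ERK) differed by -0.20, 0.19 and -0.27. *Egfr* was the gene called higher, with 7.82 and 8.24 rescaled FPKM in neuroblasts, against 0, 0.0402, 0.0126 and 0.0811 in S2 cells (difference 3.13, SE 0.12, adjusted p = 1.13e-06), while its ligand genes *spi* and *grk* were lower (differences -2.03 and -4.56). *spi* was not called without neuroblast library 1, S2 library 1 or S2 library 2 (-1.93 to -1.99), or after rescaling over coding genes (-1.91). The ligand gene *Krn* was not called (difference -1.74), except without neuroblast library 2 or with a pseudocount of 0.1 (-2.02 in both). Of JAK/STAT genes, *upd3* had 0 rescaled FPKM in both neuroblast libraries, against 5.36, 5.16, 5.07 and 8.38 in S2 cells (difference -2.78), the feedback gene *Socs36E* -2.96, and *dome*, *hop* and *Stat92E*, the receptor, kinase and factor genes, -0.72, 0.18 and -1.28, without a call.

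Most detoxification genes tested were lower in neuroblasts. Of 23 tested glutathione S-transferase genes, 16 (69.6%) were called lower and 1 higher, with a median difference of -3.57, and their summed level was 554 and 555 rescaled FPKM in neuroblasts, against 2337 to 3692 in S2 cells. *GstD5* had 0.452 and 0.294 rescaled FPKM in neuroblasts, against 496, 413, 110.3 and 99.7 in S2 cells (difference -7.32, SE 0.72, adjusted p = 1.02e-04), with S2 libraries 1 and 2 above S2 libraries 3 and 4. *GstE6* had 4.03 and 5.01 rescaled FPKM in neuroblasts, against 550.2, 641, 334 and 339.7 in S2 cells (difference -6.35, SE 0.30, adjusted p = 3.16e-06), and *GstD1* had 93.4 and 98.6 rescaled FPKM in neuroblasts, against 876, 823, 585 and 541 in S2 cells (difference -2.84, SE 0.22, adjusted p = 3.05e-05), the highest level of the list in neuroblasts after *CG6673*. *GstS1* ran the other way with 67.8 and 66.2 rescaled FPKM in neuroblasts, against 0.498, 0.789, 2.52 and 2.21 in S2 cells (difference 4.86, SE 0.38, adjusted p = 3.26e-05). The list does not hold 6 tested genes that the gene name table now calls glutathione S-transferases, found after the values were seen. Of these, *CG9363* (*GstZ2*), described above, was called higher and had more rescaled FPKM in neuroblasts than any listed gene, *CG1681* (*GstT4*), *CG6776* (*GstO3*), *CG9362* (*GstZ1*) and *CG30005* (*GstT2*) were called lower (differences -7.08, -4.79, -3.85 and -2.19), and *CG1702* (*GstT3*) was not called (-0.58). With them, 20 of 29 (69.0%) were called lower and 2 (6.90%) higher, and the summed level above leaves them out. The GstD and GstE genes are clustered copies whose reads may be shared, and most are short: among listed genes of at least 1000 bases 5 were called lower. Of 32 cytochrome P450 genes listed, 11 were tested, 7 (63.6%) were called lower and none higher, against 16.5% and 7.26% of all genes. *Cyp9c1* had 0.148 and 0.198 rescaled FPKM in neuroblasts, against 109, 96.7, 177 and 179 in S2 cells (difference -6.86, SE 0.29, adjusted p = 1.93e-06) and *Cyp4e2* 0.143 and 0.0544 rescaled FPKM in neuroblasts, against 18.0 to 27.3 in S2 cells (difference -4.34). *Cyp12a4* (difference -2.19) lost its call without either neuroblast library, without S2 library 3 or without S2 library 4. The ecdysone synthesis genes *phm*, *dib*, *sad*, *shd* and *spo* were under the level filter in both cell types.

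Most genes of DNA replication and the G1/S transition were higher in neuroblasts. Of 40 tested members, 15 (37.5%) were called higher and 1 lower, with a median difference of 1.85. At an adjusted p under 0.05, 34 were higher, a class that held 36.3% of all genes. *Mcm7*, of the replicative helicase, had 578 and 547 rescaled FPKM in neuroblasts, against 43.8, 38.4, 33.2 and 32.4 in S2 cells, a log2 difference of 3.90 (SE 0.15, adjusted p = 1.14e-06). The other helicase genes *Mcm2*, *Mcm3*, *dpa* (Mcm4), *Mcm5* and *Mcm6* differed by 3.33, 3.50, 2.70, 3.13 and 2.70, so all 6 subunits were called higher. *CycE*, the G1/S cyclin gene, had 194 and 210.3 rescaled FPKM in neuroblasts, against 18.5, 18.7, 13.1 and 18.6 in S2 cells (difference 3.49, SE 0.17, adjusted p = 4.11e-06). *mus209*, the PCNA gene, had 1228 and 1229 rescaled FPKM in neuroblasts, against 183, 173, 146 and 165 in S2 cells (difference 2.88, SE 0.11, adjusted p = 1.35e-06). For *Mcm7*, *CycE* and *mus209* all 4 S2 libraries lay far below both neuroblast libraries, and S2 library 3 lay below the other 3 for *CycE*. The origin complex genes *Orc2* and *Orc6* were called (differences 2.37 and 2.21), while *Orc1*, *Orc4* and *Orc5* were not (differences 1.35, 1.99 and 1.80). *Orc4* was called without neuroblast library 2, S2 library 1 or S2 library 2 (2.00 to 2.06). *CycD*, *Cdk4* and *Rbf*, which act before commitment, had differences of -0.33, -0.39 and -0.24 and were not called. The gene lower was *dap*, the p27-like inhibitor of Cyclin E, with 3.85 and 4.04 rescaled FPKM in neuroblasts, against 31.3, 32.8, 19.5 and 23.8 in S2 cells (difference -2.47, SE 0.23, adjusted p = 8.13e-05).

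Mitotic genes had a similar shift. Of 49 tested members, 14 (28.6%) were called higher and none lower, with a median difference of 1.60. At an adjusted p under 0.05, 45 were higher, a class that held 36.3% of all genes. *CycB3* had 632 and 617 rescaled FPKM in neuroblasts, against 19.7, 20.9, 13.6 and 18.5 in S2 cells, a log2 difference of 5.04 (SE 0.18, adjusted p = 9.27e-07) and a ratio of mean levels of 34.4. *CycA* had 919 and 934 rescaled FPKM in neuroblasts, against 83.5, 85.5, 79.7 and 89.9 in S2 cells (difference 3.44, SE 0.09, adjusted p = 3.12e-07), and *CycB* 496 and 494 rescaled FPKM in neuroblasts, against 95.0, 90.1, 68.7 and 70.9 in S2 cells (difference 2.61, SE 0.16, adjusted p = 1.05e-05). The order of the 3 cyclin genes by level thus differed between the cell types, with *CycB3* above *CycB* in neuroblasts and below it in S2 cells. *cdc2* (Cdk1) differed by 2.67, the citron kinase gene *sti* by 3.09, the spindle pole gene *asp* by 3.04, and *borr* and *ial* (Borealin and Aurora B) by 2.87 and 2.30. *stg*, the Cdc25 gene that triggers mitosis, had 397 and 381 rescaled FPKM in neuroblasts, against 179, 173, 194 and 246 in S2 cells (difference 0.99, SE 0.16, adjusted p = 0.00102), short of the threshold. Of the centrosome and centriole genes on the list, *cnn*, *SAK* and *Sas-4* differed by 0.42, 0.52 and 1.19, *ana1*, *ana2* and *sas-6* by 1.37, 1.61 and 1.37, and *tacc* by -0.58, with no call.

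**Figure D4:**
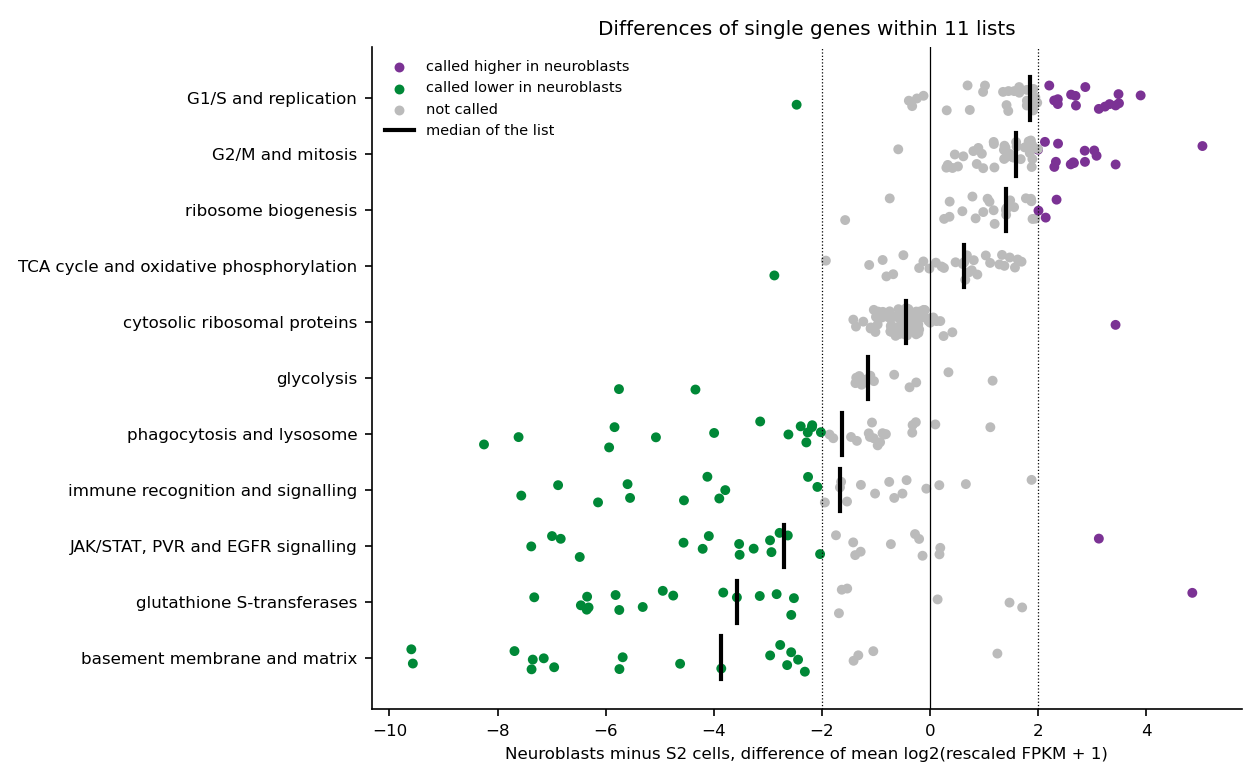
Difference of each tested gene within 11 lists, neuroblasts minus S2 cells, as the difference of mean log2(rescaled FPKM + 1), with the median of each list as a black bar and the threshold of 2 as dotted lines. The replication and mitosis lists sit right of 0 (medians 1.85 and 1.60), and the matrix and glutathione S-transferase lists left of it (medians -3.86 and -3.57).

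Ribosome biogenesis genes were mostly higher in neuroblasts by less than the threshold. Of 27 genes, 3 (11.1%) were called higher, near the 7.26% of all genes, and none lower. At an adjusted p under 0.05, 22 were higher, a class that held 36.3% of all genes, and the median difference was 1.41. *Surf6* had 113 and 127 rescaled FPKM in neuroblasts, against 25.02, 25.4, 19.6 and 21.6 in S2 cells (difference 2.34, SE 0.15, adjusted p = 1.17e-05), and *RpI1*, the large subunit gene of RNA polymerase I, had 115 and 116 rescaled FPKM in neuroblasts, against 31.8, 31.7, 27.3 and 32.5 in S2 cells (difference 1.88, SE 0.12, adjusted p = 1.12e-05). The nucleolar genes *Nop56* and *Fib* (fibrillarin) had differences of 1.95 and 1.20, and *Nop56* was called without S2 library 1 (2.03) or S2 library 2 (2.00). *Nopp140* was called (difference 2.01), but not without neuroblast library 2 (2.00, just under the threshold) or without S2 library 3 (1.75). *dm*, the Myc gene, had 75.8 and 75.9 rescaled FPKM in neuroblasts, against 62.3, 47.9, 37.4 and 105 in S2 cells (difference 0.37), with S2 library 4 above both neuroblast libraries. *mbm*, a nucleolar gene of neuroblast growth, had 75.1 and 81.5 rescaled FPKM in neuroblasts, against 36.0 to 37.7 in S2 cells (difference 1.07).

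Cytosolic ribosomal protein genes themselves pointed the other way by less than the threshold. Of 81 tested, 55 were lower at an adjusted p under 0.05 and 1 was higher, with a median difference of -0.44. At that threshold 40.0% of all genes were lower and 36.3% higher. They made up 29.4% and 28.6% of all rescaled FPKM in neuroblasts, against 39.5% to 45.2% in S2 cells. The list's median was below 0 under each of 5 scalings of the libraries, from -0.59 to -0.20. The gene called higher was *RpS6*, with 39.0 and 43.1 rescaled FPKM in neuroblasts, against 1.97, 3.45, 3.38 and 2.92 in S2 cells (difference 3.44, SE 0.20, adjusted p = 8.92e-06), levels far below those of other ribosomal protein genes, and in the authors' deposited table its group means differ by 0.04 on the same scale. *RpL28* had 3244 and 3272 rescaled FPKM in neuroblasts, against 10022, 8312, 7170.4 and 9577 in S2 cells (difference -1.42, SE 0.15, adjusted p = 1.46e-04). The median of all genes was -0.06, and quantile normalisation moved that median by 0.23. Among second copies of these genes, *RpS15Ab* had 321 and 354 rescaled FPKM in neuroblasts, against 62.5 to 109 in S2 cells (difference 1.99). *RpS19b* had 13.3 and 11.1 rescaled FPKM in neuroblasts, against 25.7 to 40.2 in S2 cells (difference -1.48). None of 9 was called, and *RpS15Ab* was without neuroblast library 1, S2 library 3 or S2 library 4 (2.04 to 2.12).

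Energy metabolism genes passed the 4-fold threshold in few cases. Of 14 tested glycolysis genes, 2 (14.3%) were called lower, near the 16.5% of all genes, and none higher. At an adjusted p under 0.05, 9 were lower, a class that held 40.0% of all genes, and the median difference was -1.14. *ImpL3*, the lactate dehydrogenase gene, had 10.6 and 6.44 rescaled FPKM in neuroblasts, against 707, 589, 350.3 and 425 in S2 cells (difference -5.75, SE 0.32, adjusted p = 6.36e-06), and *Pgm*, the phosphoglucomutase gene, had 10.6 and 8.92 rescaled FPKM in neuroblasts, against 248, 232, 207 and 180.3 in S2 cells (difference -4.34, SE 0.16, adjusted p = 9.91e-07). The groups were apart by a wide margin for both genes, and the steps between, such as *Pfk*, *Gapdh1* and *Eno*, differed by -1.19, -1.31 and -1.26. The last step, *PyK*, differed by -0.38 (adjusted p = 0.0927). Of 31 genes of the citric acid cycle and oxidative phosphorylation, 18 were higher and 7 lower at an adjusted p under 0.05 (36.3% and 40.0% of all genes), with a median difference of 0.64. The ATP synthase genes *ATPsyn-beta* and *blw* (the alpha subunit) had 1437 and 1479.5 rescaled FPKM in neuroblasts, against 432, 401, 455 and 517 in S2 cells (difference 1.70), and 1143 and 1147 rescaled FPKM in neuroblasts, against 410.5, 373, 319 and 386 in S2 cells (difference 1.63). The 1 gene called was *Mdh2*, the mitochondrial malate dehydrogenase gene, lower with 30.4 and 26.1 rescaled FPKM in neuroblasts, against 248, 215, 192 and 203 in S2 cells (difference -2.88, SE 0.13, adjusted p = 3.08e-06). *skap*, a succinyl-CoA synthetase subunit gene (difference -1.92), joined it without S2 library 3 (-2.01).

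Chromatin genes were present in both cell types. Of 31 Polycomb and trithorax group genes, 2 (6.45%) were called higher and 1 (3.23%) lower, against 7.26% and 16.5% of all genes. The median difference was 1.04. *Caf1*, the histone-binding subunit gene shared by several complexes, had 527 and 524 rescaled FPKM in neuroblasts, against 98.9, 104, 88.2 and 104 in S2 cells (difference 2.40, SE 0.10, adjusted p = 2.18e-06), and *jing* differed by 2.20. *Su(z)2* had 0.569 and 0.568 rescaled FPKM in neuroblasts, against 10.5, 8.59, 5.92 and 15.5 in S2 cells (difference -2.75, SE 0.33, adjusted p = 2.62e-04), while its neighbour and paralogue *Psc* had 28.4 and 28.2 rescaled FPKM in neuroblasts, against 7.62 to 20.8 in S2 cells (difference 1.22). *Pc* and *E(z)* differed by 1.46 and 1.15.

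The 2 non-coding RNAs of the male X chromosome complex differed in opposite directions. *roX1* had 975 and 866 rescaled FPKM in neuroblasts, against 1.37, 1.28, 2.59 and 4.04 in S2 cells, a log2 difference of 8.19 (SE 0.34, adjusted p = 1.75e-06) and a ratio of mean levels of 396. *roX2* had 4.96 and 3.57 rescaled FPKM in neuroblasts, against 59.8, 72.6, 210.4 and 176 in S2 cells, a log2 difference of -4.45 (SE 0.54, adjusted p = 2.87e-04) and a ratio of mean levels, S2 cells over neuroblasts, of 30.4. S2 libraries 3 and 4 were above S2 libraries 1 and 2 for *roX2*, and all 4 were above neuroblasts. The protein genes of the same complex, *msl-1*, *msl-2*, *msl-3*, *mof* and *mle*, had log2 differences of 1.63, -0.48, 0.77, 0.57 and 0.48, with no call. The labels used do not give the sex of the larvae.

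Small RNA pathway genes included 5 called higher of 29 (17.2%) and none lower, against 7.26% and 16.5% of all genes. The 5 include *Dcr-2*, which the neuroblast lines also carry as a transgene. Apart from *Dcr-2* they were genes best known from the germline: *vas* had 17.1 and 14.8 rescaled FPKM in neuroblasts, against 0, 0.252, 0.0610 and 0.119 in S2 cells (difference 3.94, SE 0.15, adjusted p = 1.19e-06), *cuff* 21.4 and 22.6 rescaled FPKM in neuroblasts, against 1.12, 1.09, 2.84 and 4.35 in S2 cells (difference 2.90, SE 0.41, adjusted p = 5.96e-04), *tej* 5.59 and 5.89 rescaled FPKM in neuroblasts, against 0.0641 to 0.202 in S2 cells (difference 2.57) and *CG9754* (now *Panx*) 76.5 and 79.9 rescaled FPKM in neuroblasts, against 8.86 to 14.3 in S2 cells (difference 2.64). *piwi* had 0.890 and 0.959 rescaled FPKM in neuroblasts, against 4.11 to 8.04 in S2 cells (difference -1.76) and *AGO2*, the siRNA effector gene, 84.6 and 83.6 rescaled FPKM in neuroblasts, against 133 to 208 in S2 cells (difference -1.03), neither called. *vas* and *vig* overlap in the tables.

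Of the tubulin genes, *alphaTub84B* and *betaTub56D*, the main forms, had 5856 and 5515 rescaled FPKM in neuroblasts, against 2194 to 2758 in S2 cells (difference 1.20) and 5089.9 and 4943 rescaled FPKM in neuroblasts, against 1440.0 to 2209 in S2 cells (difference 1.53). *gammaTub37C*, known as the ovary and egg form of gamma-tubulin, had 38.9 and 39.1 rescaled FPKM in neuroblasts, against 0.208, 0.408, 1.48 and 1.35 in S2 cells (difference 4.49, SE 0.33, adjusted p = 2.45e-05), while *gammaTub23C*, the widely expressed form, had 202 and 197 rescaled FPKM in neuroblasts, against 49.7 to 66.9 in S2 cells (difference 1.76). *alphaTub84D* was called higher (difference 2.14) and *betaTub97EF* lower (difference -2.25). Against S2 libraries 1 and 2 alone *alphaTub84D* had a difference of 1.90 and *betaTub97EF* of -1.91, under the threshold.

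Heat shock genes varied within the S2 group. Of 24 tested, 1 (4.17%) was called higher and 2 (8.33%) lower, against 7.26% and 16.5% of all genes. The median difference was -0.28. *Hsp67Ba* had 333 and 364 rescaled FPKM in neuroblasts, against 10.3, 9.06, 12.4 and 12.3 in S2 cells (difference 4.87, SE 0.16, adjusted p = 6.27e-07). *Hsp22* had 266 and 245 rescaled FPKM in neuroblasts, against 1706, 1838, 2472 and 2368 in S2 cells (difference -3.01, SE 0.17, adjusted p = 7.95e-06) and *stv*, the Starvin co-chaperone gene, 2.69 and 3.26 rescaled FPKM in neuroblasts, against 37.8, 33.3, 56.8 and 77.0 in S2 cells (difference -3.64, SE 0.34, adjusted p = 8.06e-05). The constitutive *Hsc70-4* had 3524 and 3530.2 rescaled FPKM in neuroblasts, against 2152 to 2795 in S2 cells (difference 0.54), and the Hsp70 copies, which share sequence so closely that reads may be split among them, had differences from -0.999 for *Hsp70Bbb* to -0.07 for *Hsp70Bb*, none called. *Hsc70-2* had 9.38 and 9.53 rescaled FPKM in neuroblasts, against 0.264, 0.268, 17.5 and 15.02 in S2 cells, with S2 libraries 3 and 4 above neuroblasts and S2 libraries 1 and 2 near 0. Of the longer list of fat body and muscle genes, 4 of 20 were tested, with *Lsp1gamma*, a larval serum protein gene, called higher (difference 2.22) and *Lsd-1*, a lipid droplet gene, lower (difference -3.67).

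The same comparison was made in the other 6 libraries, *barc* RNAi neuroblasts against dsbarc S2 cells, which share no library with the controls. Kits and cell sources were the same, and *barc* was targeted in both cell types. There 1946 of 8345 genes tested (23.3%) were called, 600 (7.19%) higher and 1346 (16.1%) lower. Of the 1916 genes called in the controls, 1906 were tested there, 1547 (81.2%) were called in the same direction and 1901 had the same sign. By direction these were 449 of 583 higher and 1098 of 1323 lower. The neuroblast markers were close to their control values, with *mira* at 9.79 and *dpn* at 7.46, and on the S2 side *Pvr* was at -6.79, *vkg* at -8.18 and *BM-40-SPARC* at -5.52, against -7.38, -9.57 and -7.37 in the controls. Exceptions were *ImpL3*, at a difference of -0.11 in the depleted libraries and -5.75 in the controls, *Hsp22*, at 1.52 in the depleted libraries and -3.01 in the controls, and *Fas3*, at -1.03 in the depleted libraries and 2.11 in the controls. *insc* had 2.06 in the depleted libraries and 5.36 in the controls, and *GstE6* had -2.38 and -6.35 in the same order. Higher counts are given here for 2 of the 33 lists, picked by no rule set in advance. Of all genes, 7.19% were called higher in the depleted libraries and 7.26% in the controls. Over all lists and alternatives, 91 of 1320 list counts moved by over 1.5 times. The numbers of list genes tested in the depleted libraries are not given, so the counts there have no share. Of mitotic genes 25 were called higher in the depleted libraries, against 14 of 49 tested in the controls. Of heat shock genes 9 were, against 1 of 24. Whether these genes respond to the depletion differently in the 2 cell types was not tested here.

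**Figure D5:**
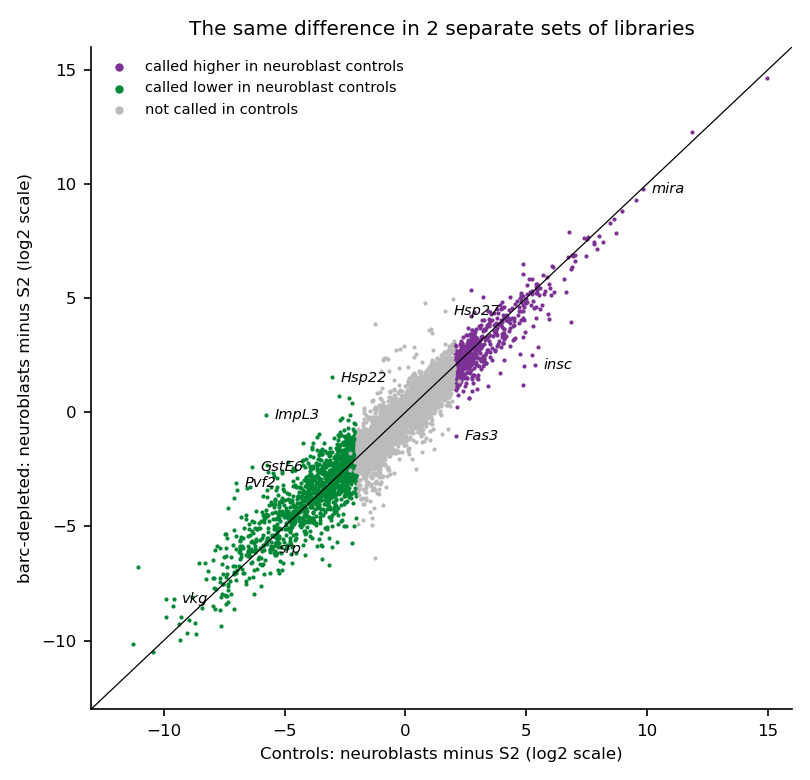
Difference between neuroblasts and S2 cells (log2 scale) in the *barc*-depleted libraries (vertical axis) against the same difference in the controls (horizontal axis), for the genes tested in both, coloured by their call in the controls, with the line of equality. Of the 1906 called genes, 1901 lie on the same side of 0 in both comparisons, and *ImpL3*, *Hsp22* and *Fas3* lie away from the line.

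In the authors' deposited tables, which hold group means of counts divided by size factors and no single libraries, 1798 of the 1916 called genes had a value in both cell types. Of these, 1705 differed by at least 2 in the same direction after each mean was rescaled to 1000000. The 1 gene of opposite sign was *CG30108*, at -4.09 in FPKM and 0.18 in the authors' values. The 2 tables were normalised separately, so these figures carry no test.

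Position and size of genes were compared with the calls. On the 5 large arms the median difference lay between -0.25 (2L) and -0.01 (3L), against -0.06 over all genes. On the small chromosome 4 it was 0.78 over 64 genes, of which 5 were called higher and 2 lower (7.81% and 3.12%). By the span of the locus, the median ran from 0.22 for genes under 1 kb to -0.68 for genes over 20 kb. In the longest class 13.1% were called higher and 24.3% lower, both above the shares of all genes. The library kits and the cells cannot be told apart in this trend.

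The 4 S2 libraries were not alike in every gene: 84 of the 8074 genes differed by at least 2 between the means of libraries 3 and 4 and of libraries 1 and 2. *Dr*, *Hsc70-2* and *Hml* were among the genes for which this spread exceeded the difference from neuroblasts. Against S2 libraries 1 and 2 alone 1908 genes were called, and against S2 libraries 3 and 4 alone 1990.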

How the data were processed

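Polyadenylated RNA of sorted neuroblasts and of S2 cells was sequenced from strand-marked libraries. The authors deposited FPKM per gene and library with confidence bounds and a status, made with Cufflinks 1.3.0 after TopHat 1.4.1, per the submitters' processing notes, which also name BWA 0.6.1, HTSeq and DESeq with no role or order. The authors also deposited group means of counts divided by size factors (a signal, per the file headers), used here only as a check. Counts per library were not used here, so no count test was run. The sources used here give neither the genome build nor the strand setting.

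FPKM were rescaled to 1000000 per library over all 14210 genes. Genes were then kept with status OK in all 6 libraries (14132 genes, 78 left out) and a mean of at least 1 in either group. They were compared as log2(value + 1), a scale that understates the differences of low genes. Groups were taken from the labels, 2 libraries against 4, and fitted with limma 3.58.1 (trend) in R 4.3.3, with Benjamini-Hochberg adjustment over 8074 genes, using Python 3.11.15, pandas 2.3.3, numpy 2.4.6 and matplotlib 3.10.9 for tables and plots. A call needs an adjusted p under 0.05 and 2 on the log2 scale. The fit was also run on simulated data that held no kit effect and no set difference between S2 pairs. That run cannot speak to either. Implied fragments, from the width of the confidence bounds, were 18.8 to 30.4 M a library. No columns of other samples were present (0 unused).

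The 33 lists (841 genes matched, 5 not, 41 on more than 1 list) and the members were chosen with earlier results of these data known. Genes named are the 5 markers, the 15 called genes with the largest difference each way, *Dcr-2*, *barc* and *w*, up to 10 on and off genes by level, and in each list up to 6 called members a direction by size, with members of known role that were not called. Other list members were named for their role, after their values were seen. Release 6 annotation gave a biotype for 13575 identifiers and current names. Overlapping loci (*mira* and *Hs6st*, *pros* and the *KP78* genes, *ase* and *CG32816*, *insc* and *sktl*, *He* and *nimB5*, *PGRP-SA* and *RpII215*, *spdo* and *PH4alphaEFB*) may share reads. Replicates 1 and 2 of both groups share numbers, but the labels do not pair them. Their deviations from the group means had correlations of -0.00306 and -0.0159. Neuroblast library 1 had 0.128 and -0.124 with S2 libraries 3 and 4. These values cannot decide on pairing, since the S2 mean was taken over both S2 pairs, which differ. Alternatives covered the pseudocount, filter, scaling, fit, S2 pairs, single libraries, a replicate block and short genes.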

Additional observations from a re-analysis of the deposited data

Results flagged for a closer look

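In 5 of 131 named genes tested for a library far from the rest of its group, 1 S2 control library stood apart from the other 3 by Dixon's test; chance gives about 1 in 20 groups. *CycE* was low in S2 control 3, at 13.066 rescaled FPKM, against 18.5 to 18.7 in the other S2 libraries. *vkg* was low in the same library, at 720.3 rescaled FPKM, against 864 to 883 in the others. S2 control 4 was high for *Fas3*, at 2.2261 rescaled FPKM, against 1.56 to 1.60 in the others. It was also high for *ap*, at 1003.0 rescaled FPKM, against 514 to 529.9, and for *neur*, at 19.408 rescaled FPKM, against 10.2 to 11.3. All 5 genes were called, and each stayed called without the library that stood apart.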

How the results depend on the processing

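The number of genes called stayed within 1.5 times of 1916 under all 20 alternative fits, from 1701 without genes spanning under 1000 bases to 2566 with a pseudocount of 0.1 (808 higher, 1758 lower). Leaving out 1 library in turn gave 1870 to 1937 genes, 560 to 604 higher and 1293 to 1364 lower. With a replicate block 1908 genes were called (577 higher, 1331 lower). Since S2 libraries 3 and 4 share no number with a neuroblast library, the difference with the block equals the one against S2 libraries 1 and 2. The labels do not pair the samples. Quantile normalisation shifted the median of all genes by 0.23, median ratio scaling by -0.15 and rescaling over coding genes by 0.12; calls were 44.5%, 26.7% and 34.8% higher, against 30.6%. The median of each of the 33 lists kept its sign under these scalings. Of 3742 pairs of a named gene (180 genes) and an alternative, 3682 kept their call, 50 lost it with the same sign, 6 gained one, and 2 moved in the authors' means. Of list genes and added glutathione S-transferase genes named in the report, calls ended after quantile normalisation for *betaTub97EF*, *mew*, *Su(z)2*, *dap*, *Pxn*, *drpr*, *Dscam*, *Cyp12a4*, *CG30005*, *eater*, *kuz*, *trol* and *wb* (-1.99 to -1.20) and for *alphaTub84D* and *Nopp140* (1.94 and 1.84), after median ratio scaling for *Fas3*, *mud*, *sn*, *alphaTub84D*, *Nopp140* and *scrib* (1.87 to 1.99), after rescaling over coding genes for *spi*, *cathD* and *kuz* (-1.96 to -1.90), and with FPKM as deposited for *Appl*, *en*, *Fas3*, *Lsp1gamma*, *Sema-1a* and *cac* (1.91 to 2.00) and for *betaTub97EF*, *mew*, *Cyp12a4* and *eater* (-1.95 to -1.79). With the replicate block they ended for *alphaTub84D*, *Sema-1a*, *Nopp140* and *scrib* (1.62 to 1.90) and for *betaTub97EF*, *Cyp12a4*, *eater* and *wb* (-1.91 to -1.24). In the *barc*-depleted libraries *Fas3* (-1.03) and *Hsp22* (1.52) changed sign; the cause was not tested. Of 1320 list counts 91 moved by over 1.5 times. Depth limits genes near 1 rescaled FPKM, and intervals were not computed.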

Other observations

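The most abundant entry of both neuroblast libraries was *CR34335*, a long non-coding RNA, with 6.39% and 5.94% of all rescaled FPKM. It had 63851 and 59446 rescaled FPKM in neuroblasts, against 8152, 13466, 25939 and 18412 in S2 cells, a log2 difference of 2.03 (limma adjusted p = 0.00398). The call was lost without neuroblast library 1 (1.97), S2 library 1 (1.73) or S2 library 2 (1.97), with median ratio scaling (1.88) and with quantile normalisation (1.19). In the *barc*-depleted libraries its difference was 1.13. The most abundant entry of each S2 library was *RpL41*, a ribosomal protein gene, with 21411 and 22560.0 rescaled FPKM in neuroblasts, against 27805 to 31193 in S2 cells. Of the 8074 tested genes, 272 were listed at 0 in both neuroblast libraries and 50 in all 4 S2 libraries.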
